A study of Mus musculus with 31 samples.

Results

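The genes described here make, sense, move and export cholesterol. They were chosen by name, 32 genes of the 31053 gene symbols counted, and all 32 were present in each of the 3 count tables. They comprised 8 enzymes of the mevalonate and isoprenoid steps (Acat2, Hmgcs1, Mvk, Pmvk, Mvd, Idi1, Fdps, Ggps1) and 11 enzymes from squalene to cholesterol (Fdft1, Sqle, Lss, Cyp51, Tm7sf2, Msmo1, Nsdhl, Hsd17b7, Ebp, Sc5d, Dhcr7). The other members were 5 sterol-sensing regulators (Srebf1, Srebf2, Insig1, Insig2, Scap), 4 genes of transport and storage (Stard4, Npc1, Npc2, Soat1) and 4 genes of export and its control (Abca1, Abcg1, Mylip, Nr1h2). The 19 enzymes with Srebf2 were set against the 4 export genes.

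The cells were mouse Th17 cells, the helper T cell type named for its cytokine IL-17, and mRNA of sorted cells was sequenced in 31 libraries. In the transfer experiments, naive T cells carrying the 2D2 receptor, which recognises a myelin protein, were made into homeostatic Th17 cells (Th17Hom) in culture and given to Rag1 KO mice, which lack T and B cells of their own but keep myeloid cells. The recipients developed EAE, a mouse model of brain and spinal cord inflammation, and 2D2+ cells were sorted from the CNS at its peak. Donors were Cyp11a1 WT (4 libraries) or Cyp11a1 cKO (6 libraries), or GR WT (5 libraries) or GR cKO (4 libraries), all on C57/B6. Cyp11a1 encodes the enzyme that cleaves the cholesterol side chain in the opening step of steroid synthesis, and GR, encoded by Nr3c1, is the glucocorticoid receptor. In the culture experiment, inflammatory Th17 cells (Th17Inf) from spleen and draining lymph node of WT C57/B6 mice were kept for 2 days as Control or with dexamethasone (Dex, a synthetic glucocorticoid), TGF-β1 or both, in 3 libraries each. The driver of the conditional deletions and the deleted exons are not given in the sources used here. Whether each library had its own recipient or culture is not in the labels, and p-values then measure the spread between libraries, which may be technical.

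Cells make cholesterol from acetyl-CoA through mevalonate. When sterol in the endoplasmic reticulum is low, Scap escorts SREBP-2, the product of Srebf2, to the Golgi, where it is cut free to switch on the synthesis genes, and when sterol is high the Insig proteins hold it back. Oxysterols made from surplus cholesterol activate LXR (Nr1h2 encodes LXRβ), which induces the exporters Abca1 and Abcg1 and the ligase Mylip, which degrades the receptor for low-density lipoprotein, so T cells that divide usually run synthesis high and export low.

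Promoter sequence shows what the genes that passed a test, and the enzyme with the widest genotype difference, carry before their RefSeq start sites. RefSeq (GRCm38.p6) promoters were matched for 26 of the 32 members, giving 34 promoters; those of Fdps, Fdft1, Sqle, Stard4, Npc1 and Abcg1 were not used here. The sterol regulatory element was searched as TCACNCCAC and the CCAAT box as CCAAT, on both strands, in the 250 bases before the start. Matches are in capitals below, read 5′ to 3′ along each gene's strand; the box reads ATTGG when it lies on the other strand, and the 9-base match in Hmgcs1 is the sterol element.
Hmgcs1, chr13:119690101-119690350, plus strand: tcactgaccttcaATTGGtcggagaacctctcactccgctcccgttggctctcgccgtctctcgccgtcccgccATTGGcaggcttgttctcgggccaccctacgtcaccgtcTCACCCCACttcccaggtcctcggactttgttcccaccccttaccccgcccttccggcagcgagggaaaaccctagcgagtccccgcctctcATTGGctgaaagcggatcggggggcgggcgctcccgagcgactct
Npc2, chr12:84773113-84773362, minus strand: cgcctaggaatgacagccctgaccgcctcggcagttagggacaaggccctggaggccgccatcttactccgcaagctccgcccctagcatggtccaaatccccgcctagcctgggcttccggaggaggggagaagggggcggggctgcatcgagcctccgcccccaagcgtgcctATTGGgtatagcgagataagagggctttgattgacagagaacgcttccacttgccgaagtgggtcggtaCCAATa
Sc5d, chr9:42264301-42264550, minus strand: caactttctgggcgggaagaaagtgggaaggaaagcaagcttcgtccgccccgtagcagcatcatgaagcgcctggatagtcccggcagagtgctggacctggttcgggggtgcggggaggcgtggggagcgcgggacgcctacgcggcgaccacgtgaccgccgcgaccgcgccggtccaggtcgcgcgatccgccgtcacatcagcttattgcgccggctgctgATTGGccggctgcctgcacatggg
Idi1, chr13:8885356-8885605, plus strand: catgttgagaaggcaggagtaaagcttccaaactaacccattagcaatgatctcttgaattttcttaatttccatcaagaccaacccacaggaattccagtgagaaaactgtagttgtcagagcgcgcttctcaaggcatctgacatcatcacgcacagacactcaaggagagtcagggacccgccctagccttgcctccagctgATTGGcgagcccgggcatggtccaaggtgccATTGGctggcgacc
This string of the sterol element was found in 1 of the 34 member promoters, that of Hmgcs1, where it began 137 bases before the start, and in 1.05% of all 32851 mouse promoters of the same length. Other spellings were not searched, so promoters without this string are not shown to lack a sterol element. The CCAAT box was found in 67.6% of the member promoters against 33.8% of all. It was present in 16 of 20 promoters of synthesis genes and Srebf2 and in 1 of 3 promoters of export genes. GGGCGG, the GC box, was in 73.5% of member promoters and 32.7% of all, and CACGTG, an E-box, in 17.6% and 6.02%; none of the motifs contains another. GENCODE starts differ from these RefSeq starts: they lie 40 bases earlier in Npc2 and 105 in Idi1, so that the Npc2 match nearest the start and both Idi1 matches are inside the GENCODE gene, and 28 and 44 bases later in Hmgcs1 and Sc5d. These are matches of letters, not measured binding sites.

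Library totals ran from 4322688 to 5118543 counts in the Cyp11a1 experiment, from 3552871 to 5623305 in the GR experiment and from 2769203 to 4291149 in culture. Levels below are CPM, each gene's share of the library's counts, scaled with TMM factors within each experiment. Predicted repeat-like genes, 11 or 12 per table, held between 9.09% and 54.6% of the counts of a library. Nr3c1 stood at 14.9 ± 2.38 CPM in GR WT (SD, n = 5) and 8.43 ± 1.42 in GR cKO (SD, n = 4), groups that did not overlap, with a log2 fold change of -0.83 (SE 0.18) that did not pass edgeR's quasi-likelihood test across all genes (adjusted p = 0.58). Cyp11a1 had 0 counts in all 4 Cyp11a1 WT libraries and in 5 of 6 cKO libraries, where the sixth had 4, so the deletion could not be checked from it. A count of 0 in those WT libraries allows up to 0.522 to 0.795 CPM, for counting error only. In culture, Cyp11a1 was measurable and fell with Dex, from 51.4 ± 4.67 CPM in Control to 22.1 ± 2.97 (SD, n = 3 each; adjusted p = 0.00017 by edgeR's quasi-likelihood test).

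The GR WT libraries did not form a single level. GR WT replicates 3 and 4 had the lowest summed level of 20 myeloid and microglial markers, 4393 and 5730 CPM, and the highest sum of 20 proliferation genes, 1765 and 1638 CPM. The other GR WT libraries had myeloid sums of 7215 to 11438 and GR cKO libraries 8112 to 11658, with none of the 20 myeloid markers at 0 in either group. Sums of 10 T cell markers ranged from 1925 to 2600 CPM in GR WT and from 2359 to 2693 in GR cKO. In these bulk samples, fewer cells of a type and less RNA per cell cannot be told apart. In culture the myeloid sums were 45.0 to 61.6 CPM, and 9 to 12 of the 20 markers, Csf1r and Adgre1 among them, were at 0 in every library of a group.

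In culture, few cholesterol genes passed a test between treatments. Npc2, which binds cholesterol inside lysosomes and hands it to Npc1 for exit, fell with TGF-β1 and with TGF-β1 + Dex. Hmgcs1, the enzyme that makes HMG-CoA, fell and Sc5d, a late desaturase of the sterol ring, rose with TGF-β1 + Dex against Control. Mylip, with 3 to 6 counts a library, was below the count filter. Of 31 members tested, 0 passed for Dex, 1 for TGF-β1 and 3 for TGF-β1 + Dex against Control by edgeR's quasi-likelihood test. By the same test 7, 5 and 9 members had an unadjusted p below 0.05, beside 1364, 1547 and 1942 of all 10332 genes. DESeq2 called 1 member for Dex, Msmo1. Of all 10332 genes tested, 1.83%, 3.29% and 6.25% passed in the same comparisons, so the members' counts of 0, 1 and 3 lay near that background. TGF-β1 + Dex against Dex gave 1 member (Npc2) beside 2.62% of all genes. TGF-β1 + Dex against TGF-β1 gave 0 members (0 by DESeq2) beside 0.532%. In that comparison 4 members had an unadjusted p below 0.05 by edgeR's test, beside 1018 of all 10332 genes. The interaction of Dex and TGF-β1 gave 0 members and 0% of all genes by edgeR, with 552 genes at an unadjusted p below 0.05, 6 genes by DESeq2 and a smallest member adjusted p of 0.909.

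Npc2 (chr12:84754562-84773152, minus strand, GRCm38) had the smallest p-value of the members in each culture comparison that called a member and, among called members, the largest fold change. Abca1, at low counts, had larger values that did not pass, such as 0.68 (SE 0.27) for TGF-β1 + Dex against Dex (adjusted p = 0.369 by edgeR's quasi-likelihood test). Npc2 levels were 254, 241 and 244 CPM in Control, 225, 222 and 214 with Dex, 178, 195 and 191 with TGF-β1, and 162, 167 and 165 with TGF-β1 + Dex. The 4 groups did not overlap, and every library with TGF-β1 lay below every library without it. The log2 fold change was -0.39 (SE 0.055) with TGF-β1 (adjusted p = 0.00119, edgeR's quasi-likelihood test) and -0.58 (SE 0.055) with TGF-β1 + Dex (adjusted p = 2.84e-05, the same test). Against Dex, adding TGF-β1 gave -0.42 (adjusted p = 0.00119 by edgeR's quasi-likelihood test). Dex gave -0.16 against Control (adjusted p = 0.179) and -0.19 on top of TGF-β1 (adjusted p = 0.228), neither of which passed edgeR's quasi-likelihood test. The 3 Npc2 calls held in each of 21 alternative analyses.

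Hmgcs1 (chr13:119690379-119708260, plus strand) stood at 94.1, 94.9 and 104 CPM in Control, 87.0, 82.1 and 88.8 with Dex, 86.9, 83.8 and 90.2 with TGF-β1, and 78.6, 65.8 and 83.8 with both. All 3 Control libraries were above all 9 treated ones. The change with TGF-β1 + Dex was -0.36 (SE 0.091; adjusted p = 0.0345 by edgeR's quasi-likelihood test). Sc5d (chr9:42251595-42264256, minus strand) stood at 43.0, 47.2 and 48.0 CPM in Control, 43.5, 52.3 and 50.4 with Dex, 57.0, 58.4 and 66.6 with TGF-β1, and 58.5, 58.1 and 64.0 with both. The 6 libraries with TGF-β1 were above the 6 without it. The Sc5d change with TGF-β1 + Dex was 0.39 (SE 0.10; adjusted p = 0.0377 by edgeR's quasi-likelihood test), and the value with TGF-β1 alone was 0.40 (adjusted p = 0.0529). The Hmgcs1 call was lost in 11 of 21 alternatives and the Sc5d call in 9, among them leaving out any Control library, with adjusted p up to 0.143 and 0.138 by edgeR's quasi-likelihood test. Leaving out TGF-β1 + Dex replicate 1 or 2 ended either call, replicate 3 also that of Sc5d, and Dex replicate 1 or TGF-β1 replicate 1 or 2 also that of Hmgcs1. Hmgcs1 shares 557 exonic bases with Gm48342 on the opposite strand, and counting without strand cannot separate them.

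**Figure D1:**
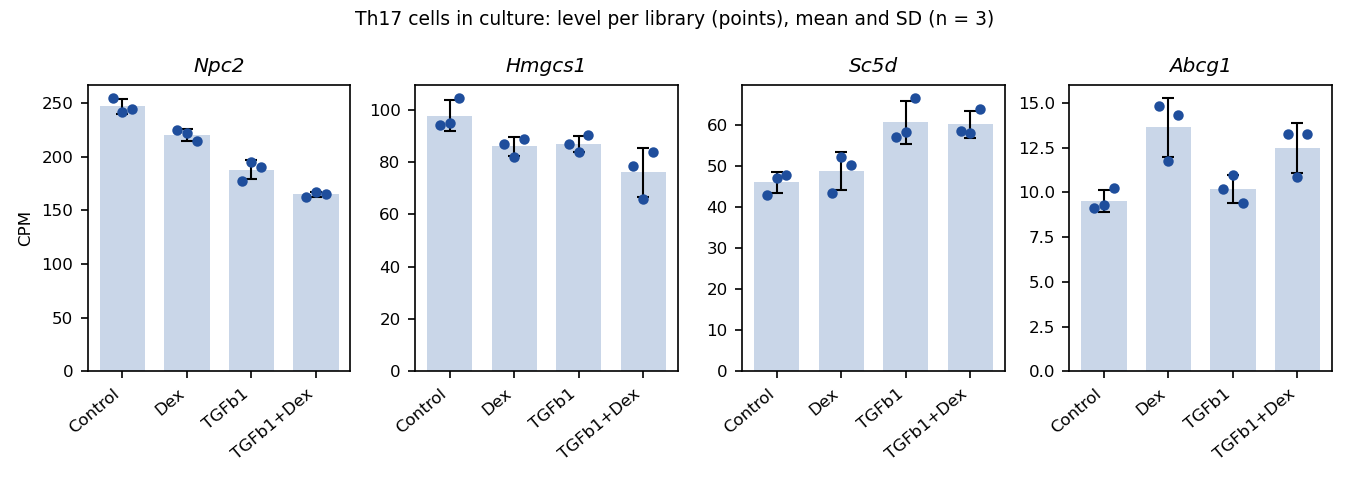
CPM of Npc2, Hmgcs1, Sc5d and Abcg1 (vertical axes, from 0) in Control, Dex, TGF-β1 and TGF-β1 + Dex cultures (horizontal axis), with points for single libraries, bars for the mean and error bars for the SD (n = 3). Npc2 stands between 162 and 195 CPM in the 6 libraries with TGF-β1 and between 214 and 254 in the 6 without it, while Abcg1, which passed no test, is higher in each library with Dex alone than in each Control library.

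None of the other enzymes passed. Msmo1, which removes a methyl group from the sterol ring, came nearest with Dex, at 92.4, 70.0 and 81.3 CPM in Control against 64.2, 59.7 and 57.2 (log2 fold change -0.42, adjusted p = 0.0658 by edgeR's quasi-likelihood test). Acat2, which condenses acetyl-CoA, stood at 64.7, 60.5 and 65.2 CPM in Control and 72.4, 83.9 and 93.1 with TGF-β1 + Dex (0.39, adjusted p = 0.0618, same edgeR test). Msmo1 was lower in every Dex library than in every Control library, and Acat2 higher in every TGF-β1 + Dex library. For these and the other genes whose groups did not overlap, the share of all genes that separate likewise was not counted. Such separation within an experiment is a description and no test. Acat3 is a near-identical copy of Acat2, so reads of the pair may be split between them and the value of Acat2 is uncertain. The median over the 19 enzymes and Srebf2 was -0.09 with Dex (14 of 20 negative), 0.09 with TGF-β1 (14 of 20 positive) and -0.03 with both (13 of 20 negative), beside medians of all genes of 0.0026, -0.0003 and 0.0011. The Dex median stayed between -0.13 and -0.08 with any single library left out. The other medians rested on single libraries: that of TGF-β1 was 0.01 without TGF-β1 replicate 3 and 0.04 without replicate 1. That of TGF-β1 + Dex was 2.46e-05 (10 of 20 negative) without Control replicate 1, -0.0017 (10 of 20 negative) without Control replicate 3, -0.09 without Control replicate 2 and -0.08 without TGF-β1 + Dex replicate 3.

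None of the 5 regulators passed in culture. Srebf2 gave -0.09, -0.00 and -0.08 on the log2 scale with Dex, TGF-β1 and both, and Insig2 gave -0.01, -0.06 and 0.01. Srebf1, which encodes SREBP-1 and is itself an LXR target, stood at 61.2, 67.3 and 62.3 CPM in Control and at 76.5, 73.9 and 72.5 with Dex (0.22, adjusted p = 0.232 by edgeR's quasi-likelihood test). Control and Dex libraries of Srebf1 did not overlap. Insig1 was 0.22 higher with TGF-β1 (adjusted p = 0.285, same edgeR test), and Scap was -0.32, -0.09 and -0.17.

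Of the export genes, Abcg1, a pump that moves cholesterol to high-density lipoprotein, stood at 9.10, 9.27 and 10.2 CPM in Control, 14.8, 11.8 and 14.3 with Dex, 10.2, 11 and 9.38 with TGF-β1, and 13.3, 10.8 and 13.3 with both. Every Dex library was above every Control library, yet the difference of 0.51 did not pass (adjusted p = 0.16 by edgeR's quasi-likelihood test). Abca1, which loads cholesterol onto apolipoprotein A-I, was at 3.27 ± 0.342 CPM in Control and 4.39 ± 0.645 with both (SD, n = 3; 7 to 20 counts a library; 0.41, adjusted p = 0.539, same edgeR test). Nr1h2 had group means of 84.7 to 88.3 CPM and differences of 0.01, 0.05 and -0.01. Mylip was at 0.821 to 2.04 CPM, near the 3 counts taken as the detection floor. Stard4, which carries sterol between membranes, gave -0.29, -0.17 and 0.02, Npc1 0.03, 0.03 and 0.19, and Soat1, which esterifies cholesterol for storage, -0.41, 0.01 and -0.10, with no call. The Soat1 value with TGF-β1 ran from -0.37 to 0.22 over 21 alternatives.

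Genotype comparisons in the CNS gave no called member. With the glucocorticoid receptor deleted, the values leaned 1 way: 19 of the 20 synthesis genes and Srebf2 were lower in value in GR cKO (median log2 fold change -0.50) and all 4 export genes were higher (median 0.38). The export median depended on single libraries, at 0.19, 0.24, 0.64 and 0.59 without GR WT replicate 3, 4, 1 and 5, while the synthesis median stayed between -0.59 and -0.40 with any single library left out. By edgeR's quasi-likelihood test 0 of 32 members passed, as did 0% of all 10597 genes. The smallest adjusted p was 0.455 over all genes and 0.58 among these members, 870 genes (9 of them synthesis genes) had an unadjusted p below 0.05, and DESeq2 called 3 genes, no member. Of all genes, 50.2% were lower in GR cKO, with a median of -0.0014. The higher synthesis values were not shared by all GR WT libraries.

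Fdps (chr3:89093588-89101959, minus strand), which makes farnesyl diphosphate, stood at 24.5, 50.3, 123, 93.4 and 23.5 CPM in GR WT replicates 1 to 5 and at 26.6, 39.1, 23.0 and 29.0 in GR cKO. Idi1 (chr13:8885501-8892451, plus strand), the isomerase that supplies its substrates, stood at 4.53, 10.7, 21.9, 23.8 and 8.06 CPM in GR WT and at 5.64, 6.43, 2.51 and 5.32 in GR cKO. GR WT replicates 3 and 4 were the highest libraries of both genes, and replicates 1 and 5 lay within or near the range of GR cKO. Idi1 had the most negative log2 fold change, -1.48 (SE 0.48), followed by Fdps at -1.10 (SE 0.47), both with groups that overlapped. Fdps shares 1124 exonic bases with Gm43738 on its own strand, and Idi1 323 with Gm48574.

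The same pair of GR WT libraries led other enzymes. Hmgcs1 stood at 12.3, 18.8, 36.4, 35.8 and 13.7 CPM in GR WT and 12.5, 15.8, 12.6 and 13.3 in GR cKO, and Sqle, the monooxygenase that oxidises squalene, at 4.35, 12.8, 22.3, 17.4 and 7.01 against 6.26, 8.08, 6.18 and 6.39. Acat2 was spread more evenly, at 6.70, 10.9, 13.4, 10.2 and 9.11 CPM in GR WT and 6.57, 7.09, 4.25 and 3.19 in GR cKO (-0.92, SE 0.27). The mevalonate enzymes had a median of -0.64 and the 11 sterol enzymes, all negative, -0.52, from -0.92 for Sqle to -0.12 for Tm7sf2, a sterol reductase. Ggps1, which makes geranylgeranyl diphosphate and so branches off before squalene, was the exception at 0.26.

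Export genes ran the other way across the same libraries. Abcg1 (chr17:31057675-31117988) stood at 31.0, 16.8, 9.46, 11.3 and 30.8 CPM in GR WT and 24.4, 21.6, 29.9 and 31.1 in GR cKO. Mylip (chr13:45389742-45412022) stood at 29.4, 11.8, 10.6, 10.7 and 30.1 CPM against 20.0, 15.0, 29.0 and 28.2, and Abca1 (chr4:53030787-53159895) at 14.3, 7.09, 2.97, 5.63 and 16.5 against 11, 7.92, 15.1 and 16.2. In all 3, GR WT replicates 1 and 5 lay within or just above the range of GR cKO and replicates 3 and 4 were the lowest libraries of the experiment. The log2 fold changes were 0.44 for Abcg1, 0.33 for Mylip and 0.46 for Abca1. Nr1h2 (chr7:44549616-44553951), the LXR gene itself, gave 0.17, at 62.9, 47.0, 47.1, 46.6 and 41.4 CPM against 61.4, 44.4, 58.3 and 57.2, without the split of its targets.

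Among regulators, Srebf2 (chr15:82147181-82205379) stood at 34.4, 44.4, 59.7, 50.2 and 27.7 CPM in GR WT and 35.7, 37.6, 32.8 and 35.9 in GR cKO, a difference of -0.29 with the same pair of libraries highest. Insig1, an SREBP-2 target, gave -0.40, Insig2 0.29, Scap -0.08 and Srebf1 0.03. Npc1, Npc2, Soat1 and Stard4 gave 0.23, 0.14, 0.15 and -0.05.

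**Figure D2:**
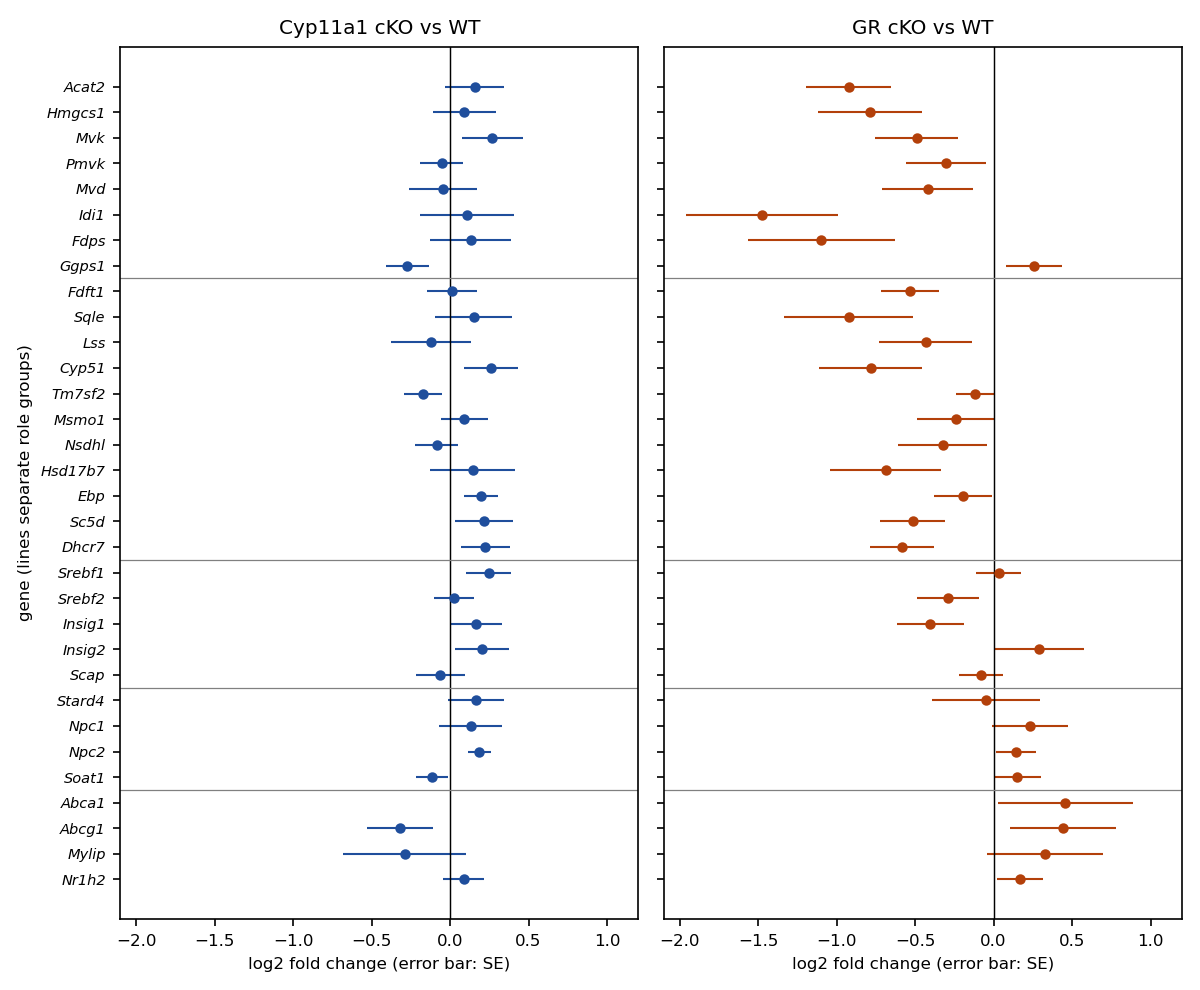
Log2 fold change of each tested member in cKO against WT (horizontal axis; points, with SE as error bars; negative is lower in cKO) for the Cyp11a1 and GR experiments, genes on the vertical axis by role. In the GR panel 19 of 20 synthesis genes and Srebf2 lie below 0 and the 4 export genes above it, while in the Cyp11a1 panel the values lie between -0.32 and 0.27.

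Myeloid and proliferation levels moved with these values. With the summed myeloid markers as a covariate, the synthesis median was -0.07 (12 of 20 negative) and the export median -0.06; with the proliferation sum it was -0.04 (11 of 20 negative) and -0.16. Without GR WT replicates 3 and 4, chosen on those marker sums after the data were seen, the medians were -0.15 (15 of 20 negative) and 0.02. Those libraries also had the highest synthesis means and lowest export means of the experiment, so leaving them out had to shrink both medians. Fdps went from -1.10 to -0.04, 0.05 and -0.16 in these 3 fits, Idi1 from -1.48 to -0.61, -0.53 and -0.64, and Acat2 from -0.92 to -0.60, -0.55 and -0.74. Abcg1 and Mylip were at -0.00 and -0.16 with the myeloid covariate. Members passing numbered 0 of 32 in each of the 3 fits, and the myeloid, proliferation and receptor differences were not separated further.

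**Figure D3:**
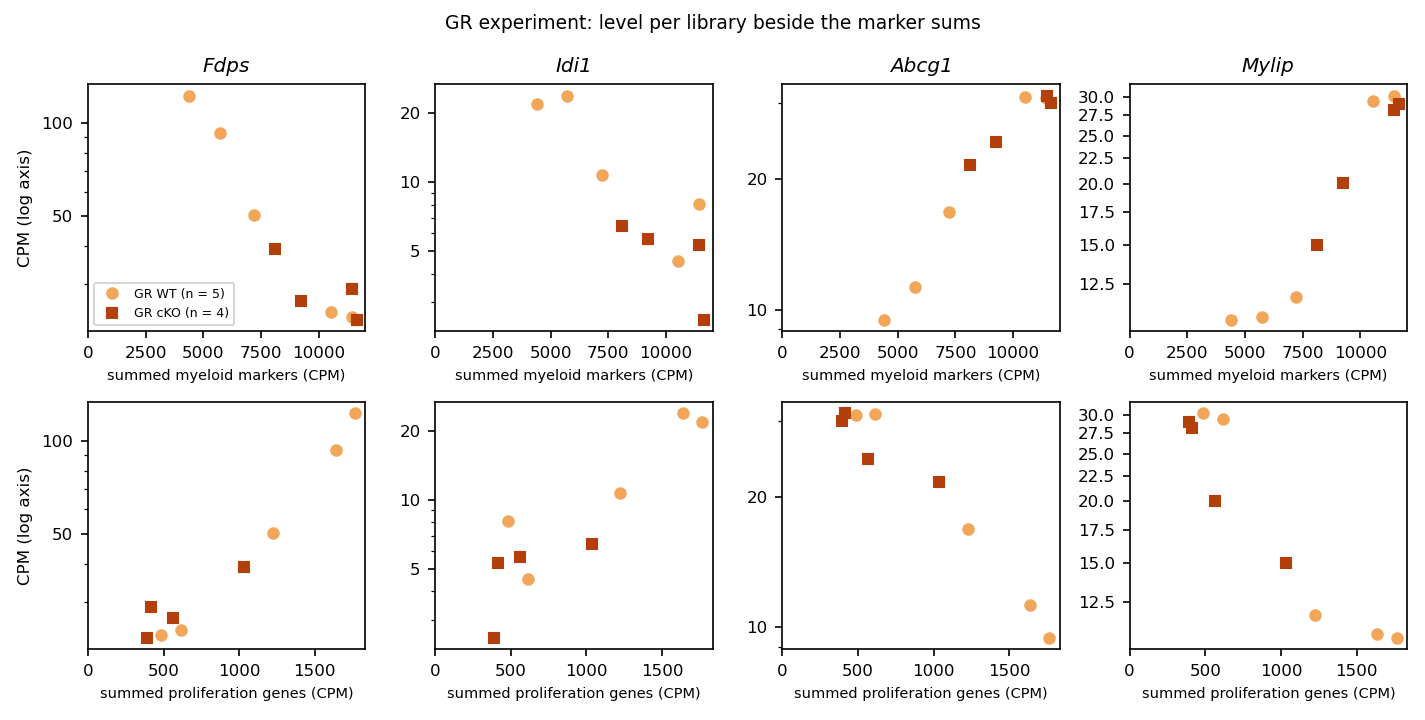
CPM of Fdps, Idi1, Abcg1 and Mylip (vertical log axes) in the 9 GR experiment libraries against the summed CPM of 20 myeloid markers (upper row) and of 20 proliferation genes (lower row), circles for GR WT and squares for GR cKO. The GR WT libraries with myeloid sums of 4393 and 5730 CPM hold the highest Fdps and Idi1 and the lowest Abcg1 and Mylip.

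In both genotypes of the GR experiment, synthesis and export were ordered in reverse. Ranked by the mean log2 CPM of the enzymes and Srebf2, the GR WT libraries ran 3, 4, 2, 5, 1 and the GR cKO libraries 2, 1, 3, 4, and in each genotype the export mean gave exactly the opposite order. The difference of the means, synthesis minus export, was -1.35, 0.01, 1.10, 0.70 and -1.12 in GR WT replicates 1 to 5 and -1.01, -0.39, -1.35 and -1.40 in GR cKO replicates 1 to 4. The GR WT libraries thus spanned a wider range than the GR cKO libraries, on both sides of 0. The median SD of log2 CPM in GR WT was 0.45 over the synthesis genes and Srebf2, 0.77 over export genes and 0.31 over all genes, and in GR cKO 0.31, 0.34 and 0.24. These are orders among libraries that also differ in marker sums, given with no test.

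In the Cyp11a1 experiment 0 of 31 tested members passed edgeR's quasi-likelihood test between genotypes. Member SEs ran up to 0.39 (Mylip), so the lack of calls does not show that levels were alike. Of all 10125 genes, 18 passed (0.178%), 14 higher and 4 lower in cKO, with 810 at an unadjusted p below 0.05; the smallest member adjusted p was 0.541. The synthesis genes and Srebf2 had a median of 0.10 (14 of 20 positive), from 0.27 for Mvk, the mevalonate kinase, to -0.27 for Ggps1. Srebf1, Srebf2, Insig1, Insig2 and Scap gave 0.25, 0.02, 0.16, 0.20 and -0.06. Abcg1, Mylip and Nr1h2 gave -0.32, -0.29 and 0.09, and Abca1 had 0 to 6 counts a library, with 1 library at 0 in each genotype, and was not tested. DESeq2 called 63 genes, no member.

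Npc2 had the smallest p of the members. It stood at 72.4, 70.9, 79.5 and 78.2 CPM in Cyp11a1 WT and at 79.9 to 89.8 in Cyp11a1 cKO (median 85.9, n = 6), groups that did not overlap. The difference was 0.19 (SE 0.075; adjusted p = 0.541 by edgeR's quasi-likelihood test). Summed myeloid markers were also without overlap, at 469 to 564 CPM in WT and 656 to 1066 in cKO, with all 20 markers above 0 in both groups. With the myeloid sum as a covariate the Npc2 difference was 0.24 (SE 0.14; adjusted p = 0.62 by edgeR's quasi-likelihood test). Because the sums did not overlap between genotypes, that fit cannot separate the myeloid sum from the genotype. Sums of 7 Th17 markers did not overlap either, at 236 to 327 CPM in WT and 135 to 232 in cKO, and sums of 7 NK and CD8 T cell markers had medians of 76.8 and 222 with ranges that overlapped. The part of these 2 sums in the member values was not tested.

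Cyp11a1 WT libraries split as well. Fdps stood at 32, 70.3, 78.1 and 32.3 CPM in Cyp11a1 WT replicates 1 to 4 and at 47.3 to 72.7 in the 6 cKO libraries (median 54.7). Mylip stood at 14.8, 4.65, 2.61 and 6.09 CPM in WT and Abcg1 at 22.2, 13.0, 11.8 and 18.3, with replicates 1 and 4 the highest of both. Replicates 1 and 4 also had the lowest proliferation sums, 970 and 1111 CPM against 1776 and 1712, while the cKO libraries had 1344 to 1751. Synthesis minus export, here over 3 export genes without Abca1, was -0.93, 0.51, 0.70 and -0.29 in WT and -0.39 to 0.59 in cKO. The WT synthesis order 3, 2, 4, 1 was the reverse of the export order. In Cyp11a1 cKO it was not: the synthesis order, from high to low, was 4, 1, 3, 5, 6, 2 and the export order, from low to high, 1, 5, 4, 6, 3, 2. Leaving out WT replicate 1 or WT replicate 4 turned the synthesis median to -0.03 in either case, and leaving out replicate 1 turned the export median to 0.17. Leaving out cKO replicate 4 gave a synthesis median of 0.02, WT replicate 2 0.17, WT replicate 3 0.16 and cKO replicate 2 0.16, and leaving out WT replicate 3 an export median of -0.46. Without WT replicates 1 and 4, chosen on the proliferation sums after the data were seen, the medians were -0.17 and 0.18. Those libraries also had the lowest synthesis and highest export means of the WT group, so these shifts followed from the choice. With the proliferation covariate the synthesis and export medians were -0.08 and 0.18, so the lean of the values had no fixed direction. With the myeloid covariate, which cannot be separated from genotype here, they were 0.43 and -0.78.

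**Figure D4:**
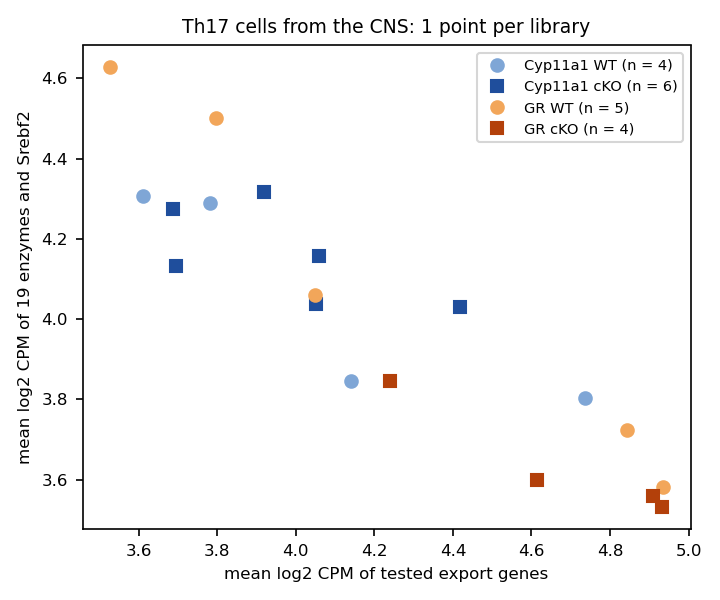
Mean log2 CPM of the 19 enzymes and Srebf2 (vertical axis) against the mean log2 CPM of the tested export genes (horizontal axis), 1 point per CNS library, coloured by genotype and experiment. Points run from upper left to lower right in both experiments, and the GR WT libraries cover the longest stretch, with synthesis minus export from -1.35 to 1.10. The export mean covers 4 genes in the GR experiment and 3, without Abca1, in the Cyp11a1 experiment, so the stretches are not on the same measure.

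The widest difference in cholesterol gene levels was between experiments. On a scale normalised over all 31 libraries, 13 of 20 synthesis genes and Srebf2 (65%) were higher in all 12 cultured libraries than in all 19 CNS libraries, against 9.73% of 12280 genes. Fdps had medians of 346 CPM in culture and 53.3 in the CNS, Mvd, which makes isopentenyl diphosphate, 63.5 and 9.96, and Acat2 62.7 and 10.1. Insig1, Stard4 and Srebf1 were also separate, making 16 of 32 members. Ebp, a sterol isomerase, at 32 and 44.9, and Ggps1, at 18.2 and 19.2, were not. Mylip was the only member lower in every cultured library, at 0.961 against 11.2 CPM, beside 8.74% of all genes lower in that way, and Abcg1 had medians of 9.62 and 18.5. Myeloid sums, scaled within each experiment, were 45.0 to 61.6 CPM in culture and 469 to 11658 in the CNS. Proliferation sums were 1704 to 1988 CPM in culture and 391 to 1776 in the CNS. The Th17 type made in culture, the transfer, the marker sums and the experiment differ together here and cannot be told apart. No test was made.

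**Figure D5:**
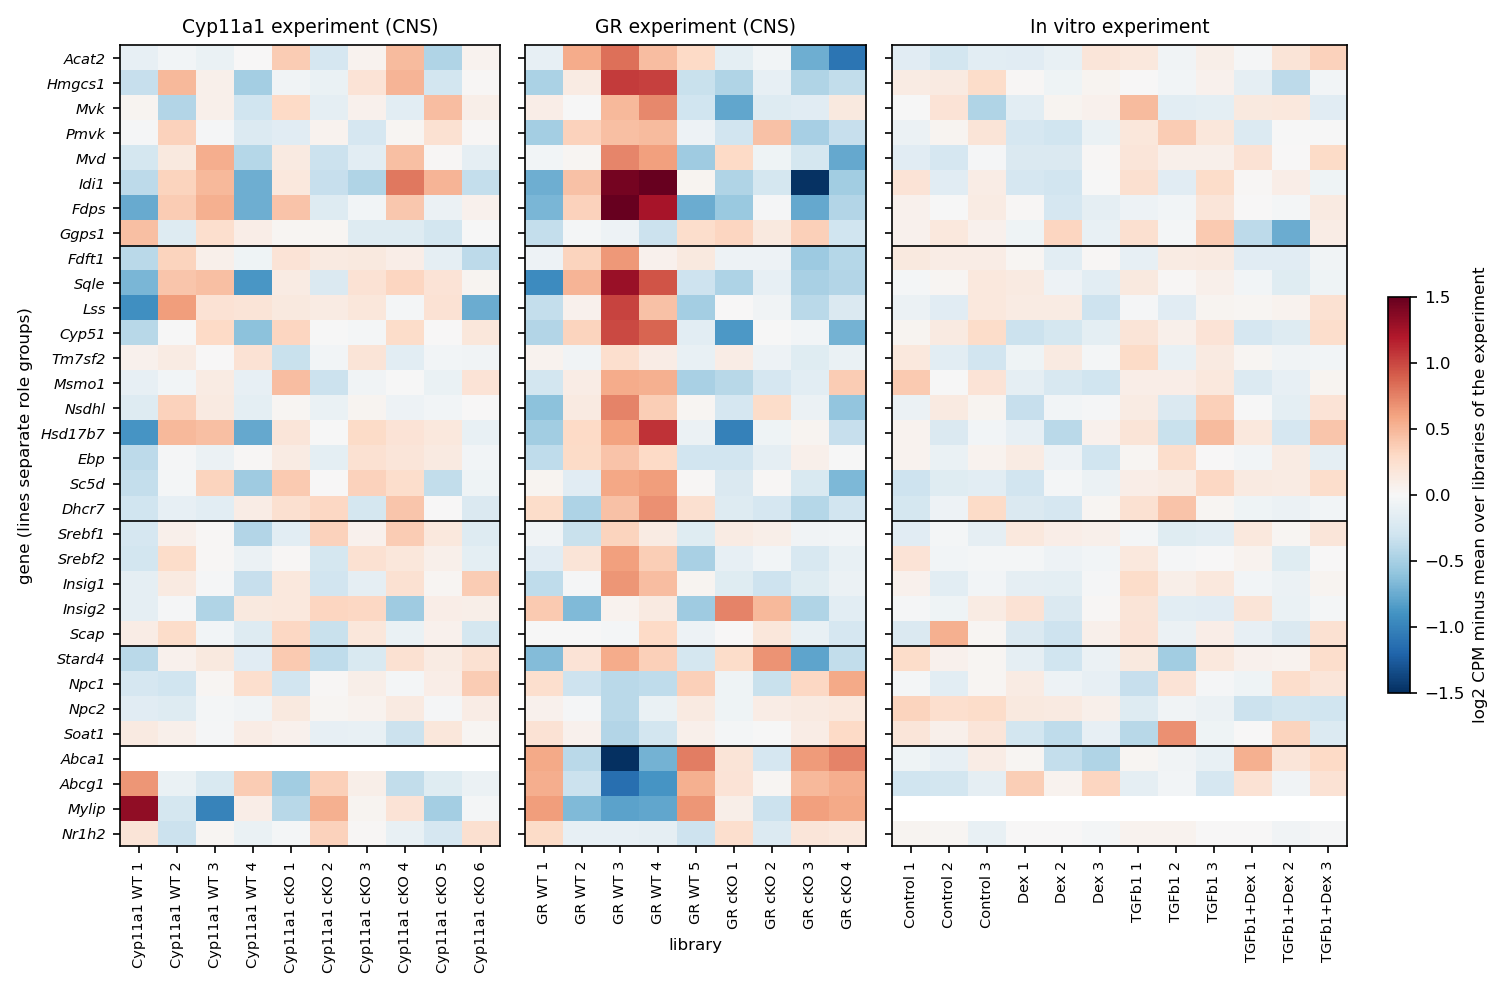
Log2 CPM of the 32 members (rows, by role) in each library (columns), shown as the difference from the gene's mean within its experiment, red above and blue below, colours limited at 1.5 on the log2 scale. Mylip in culture and Abca1 in the Cyp11a1 experiment were below the count filter and are left blank. GR WT replicates 3 and 4 are red over the enzymes and blue over Abca1, Abcg1 and Mylip. The culture panel is pale for most genes, with a median SD over members of 0.11 to 0.13 within a group. The widest SD there was 0.56, in a transport and storage gene with TGF-β1.

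Levels per kilobase were taken over all exons annotated for a gene, merged over its transcripts, so their order depends on the annotation. On that measure, Fdps had the highest level of any member in Control cultures, 97.5 CPM per kb, ahead of Npc2 at 45.4 and Pmvk, the phosphomevalonate kinase, at 40.1. The lowest were Npc1, the lysosomal cholesterol transporter, at 0.913, Mylip at 0.399 and Abca1 at 0.315. In GR WT the order was led by Npc2 at 23.2, Ebp at 16.0 and Fdps at 15.0, with Abca1 at 0.897. In Cyp11a1 WT it was led by Ebp at 17.8, Npc2 and Nr1h2 at 13.8 each, and Fdps at 12.6, with Abca1 at 0.0600. Abca1 was thus lowest of the members in all 3, at a level per kb in GR WT above that in Cyp11a1 WT; these means come from separately normalised tables.

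Neighbouring pathways were read from 4 lists. None of 10 genes of SREBP processing and sterol-dependent degradation passed edgeR's quasi-likelihood test in any comparison, with at most 1 at an unadjusted p below 0.05. Of all genes, 0% to 6.25% passed in these comparisons, so 0 of 10 lay near that background. Among 14 fatty acid genes, 12 of them tested in culture, Scd1, the stearoyl desaturase, rose from 28.2 ± 1.92 CPM in Control to 40.2 ± 2.26 with TGF-β1 (0.51, adjusted p = 0.01) and 47.1 ± 2.53 with both (0.75, adjusted p = 0.000372; edgeR's quasi-likelihood test, SD, n = 3). Elovl6, a fatty acid elongase, rose with Dex from 29.7 ± 0.521 to 48.6 ± 6.61 CPM (0.71, adjusted p = 0.0315, same edgeR test), a call lost in 6 of 21 alternatives. Scd1 with TGF-β1 lost its call in 2 of 21. Against Control, 1 of the 12 tested genes passed for Dex, for TGF-β1 and for both, beside 1.83%, 3.29% and 6.25% of all genes. Against Dex, adding TGF-β1 gave 0.54 for Scd1 (adjusted p = 0.00714, same edgeR test).

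Of 20 genes of sterol transport and esterification, 18 were tested in culture. Tspo, a mitochondrial outer membrane protein that binds cholesterol, rose from 464 ± 21.6 CPM to 659 ± 38.1 with TGF-β1 (0.50, adjusted p = 0.000162) and 588 ± 17.7 with both (0.34, adjusted p = 0.00187; edgeR's quasi-likelihood test, SD, n = 3). Against Dex, adding TGF-β1 gave 0.41 for Tspo (adjusted p = 0.00124, same edgeR test). Of the 18 genes, 1 passed higher with TGF-β1, and 2 higher and 1 lower with both, against Control. Of all genes, 3.29% and 6.25% passed there. Gramd1a and Gramd1b, which carry cholesterol from the plasma membrane, went opposite ways with TGF-β1 + Dex: 0.55 (adjusted p = 0.041) and -0.60 (adjusted p = 0.0253, same edgeR test), calls lost in 10 and 7 of 21 alternatives. Of 16 LXR and oxysterol genes, 8 were tested in culture, and Gpr183, a receptor for an oxysterol, rose with TGF-β1 + Dex from 11.6 ± 2.06 to 20.0 ± 1.02 CPM (0.78, adjusted p = 0.0361, same edgeR test; SD, n = 3), a call lost in 6 of 21. Gpr183 was the 1 call among these 8 genes, beside 6.25% of all genes in that comparison. In the Cyp11a1 and GR comparisons 0 genes of these 4 lists passed edgeR's quasi-likelihood test, with smallest adjusted p-values of 0.195 and 0.58. In the Cyp11a1 comparison, 1 of 10 fatty acid, 1 of 10 SREBP processing, 2 of 16 transport and 3 of 10 LXR genes had an unadjusted p below 0.05, beside 810 of all 10125 genes. In the GR comparison these were 2 of 10, 0 of 10, 2 of 17 and 2 of 14, beside 870 of 10597.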

How the data were processed

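Whole-transcriptome libraries were made from sorted cells by a modified SMART-Seq2 protocol with Nextera XT tagmentation, per the labels' protocols, a chemistry that does not keep strand. The deposited values are raw counts per gene symbol in 3 tables; RSEM 1.3.3 and the mm10 build are named in the submitters' processing notes. All columns matched a library by name, and 0 were left out. Each table was fitted apart with edgeR 4.0.16 (R 4.3.3; filterByExpr, TMM, robust quasi-likelihood test), with Benjamini-Hochberg adjustment over all genes tested and a threshold of 0.05; the 12 culture libraries shared 1 fit. Log2 CPM used a prior count of 2. SE is the log2 fold change over the square root of F. DESeq2 1.42.0 and limma 3.58.1 (voom) were alternatives, with other scalings, filters, covariates and libraries left out. The scripts were tested on simulated data. Replicates of a group differed by more than sampling noise (chi-square per degree of freedom 2.79 to 142). The repeat-like genes take counts from all other genes of a library; a fit without them was an alternative.

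Members and lists were chosen with earlier results of these data known. Values are given for members past the threshold in any comparison, those highest and lowest in a role group, the export genes and the regulators, and for genes of the other lists past the threshold. Other members are named where libraries or experiments differed, chosen after their values were seen. Gene positions are from GENCODE M21 (GRCm38).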

Additional observations from a re-analysis of the deposited data

Results flagged for a closer look

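In groups of 4 to 6 libraries, 4 values of 126 combinations of member and group lay apart from the rest by Dixon's test at the 95% level; chance flags about 1 in 20, or 6.3 here. Lss, the cyclase that makes lanosterol, was 8.70 CPM in Cyp11a1 cKO replicate 6, below the other libraries at 14.5 to 17.2. Insig2 was 12.4 CPM in Cyp11a1 cKO replicate 4, below the others at 19.4 to 22.8. Sqle was 8.08 CPM in GR cKO replicate 2, above the others at 6.18 to 6.39. Scap was 17.4 CPM in GR WT replicate 4, above the others at 13.3 to 14.0.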

How the results depend on the processing

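In the Cyp11a1 and GR comparisons, TGF-β1 + Dex against TGF-β1 and the interaction, 0 members passed in every alternative run, and TGF-β1 + Dex against Dex kept its count of 1. For Dex against Control the count of members went from 0 to 1 (Msmo1) with a mean count of at least 50 and with DESeq2, and to 0 to 1 when single libraries were left out. For TGF-β1 against Control it went from 1 to 2 (Sc5d added) with upper quartile scaling, with a mean count of at least 50 and with the replicate block, and to 1 to 2 with single libraries left out. For TGF-β1 + Dex against Control it went from 3 to 1 with no low-count filter, with DESeq2 and with only the compared groups in the fit, to 5 with a mean count of at least 50, and to 1 to 4 with single libraries left out. No called member reversed. The cause of these moves was not tested. Over all genes, Cyp11a1 calls went from 18 to 63 with DESeq2, 33 with no filter, 6 with voom, 3 with the myeloid covariate, 11 without WT replicate 1, 10 without WT replicate 4, 6 without both and 9 without cKO replicate 5. GR calls went from 0 to 3 with DESeq2 and 1 without WT replicate 3. TGF-β1 + Dex against TGF-β1 went from 55 to 94 with DESeq2, 22 with only those groups and 24 to 35 without a library of either. The interaction went from 0 to 6 with DESeq2, 4 with no filter and 1 without Dex replicate 2 or TGF-β1 + Dex replicate 2. Single libraries left out took Dex from 189 to as few as 78 (Control 3 or Dex 1), TGF-β1 from 340 to 219 (Control 3 or TGF-β1 replicate 1), TGF-β1 + Dex from 646 to 425 (its replicate 1) and TGF-β1 + Dex against Dex from 271 to 152 (Dex 2).

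Deviations of same-numbered libraries correlated from -0.139 to -0.0425 (Cyp11a1), from -0.238 to 0.125 (GR) and from -0.0188 to 0.0732 (culture). In culture, the replicate block took calls over all genes from 189 to 211 (Dex), 340 to 362 (TGF-β1) and 646 to 650 (both) against Control. It took them from 55 to 66 for TGF-β1 + Dex against TGF-β1 and from 271 to 280 against Dex. Whether a number marks a shared culture or day was not tested. With the replicate block the Cyp11a1 calls went from 18 to 1 of all genes and members stayed at 0, the interaction had 2 genes, and TGF-β1 + Dex against Control had 4 members (Acat2 added).

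The export median for GR was 0.70 with voom and 0.70 with the replicate block, against 0.38, and for Cyp11a1 -0.01 with voom and 0.01 with the block, against -0.29; the Cyp11a1 synthesis median was 0.17 with the block, against 0.10. Abca1 in the Cyp11a1 experiment (0 to 6 counts a library) and Mylip in culture (3 to 6) were under the count filter.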
